A study of Mus musculus with 12 samples.

Results

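The 10 genes described here encode secreted cytokines that have been linked to the growth of colon tumours: Tnf, Il6, Il11, Lif, Osm, Il23a, Il17a, Il22, Csf2 and Tgfb1. They were chosen by name, with earlier results of these data known, and all 10 were found among the 24062 genes of the deposited count table. RNA was measured by sequencing in colon tumours of 12 irradiated Balb/c mice that carried transplanted bone marrow, with 3 mice in each of 4 groups. In the St2-/- => St2-/- group, St2-/- marrow had been given to St2-/- hosts. The WT => St2-/- group paired wild-type (WT) marrow with St2-/- hosts. The St2-/- => WT group paired St2-/- marrow with WT hosts, and WT => WT mice had both from wild-type animals. St2, encoded by Il1rl1, is the receptor for the alarm cytokine IL-33. After 8 weeks of reconstitution, all mice received 6 weekly injections of azoxymethane (AOM), a carcinogen that induces colon tumours without added colitis, at 10 mg per kg. Tumours were excised when 13 or 14 weeks had passed since the final injection. The labels give the genotype of the marrow and of the host as a whole, so neither factor points to 1 cell type. The sources used here do not give the ages of the mice or the share of donor cells in each tumour, nor whether a library came from 1 tumour or several.

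These cytokines act through a few shared routes. IL-6, IL-11, LIF and oncostatin M (encoded by Osm) each bind their own receptor together with the common chain gp130 and activate STAT3, a transcription factor that promotes survival and proliferation of intestinal epithelium. TNF signals through receptors that activate NF-kB, a family of transcription factors that drives inflammatory genes. IL-23, a dimer of the products of Il23a and Il12b, sustains lymphocytes that secrete IL-17A and IL-22, both of which act on epithelial cells. GM-CSF, encoded by Csf2, supports myeloid cells, and TGF-beta 1, encoded by Tgfb1, restrains lymphocytes and early epithelial tumours while it promotes stroma.

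Gene counts per library lay between 10293818 and 12962496. Il1rl1 reads checked the host labels: 7.3 to 25 CPM (read counts scaled to the library's size) in the 6 St2-/- hosts, against 36.5 to 275 CPM in the 6 WT hosts, without overlap (log2 fold change -3.42 ± 0.519 SE, adjusted p = 0.00984, edgeR). They did not separate the marrow genotypes (log2 fold change -0.42 ± 0.479 SE, adjusted p = 0.999, edgeR) and so gave no check of the marrow labels. The sources used here do not say which part of the gene was deleted, and St2-/- => St2-/- tumours still held 100 to 175 of its reads each. All 14 markers of colon epithelium were detected, and their summed level was 7106 to 16390 CPM in St2-/- hosts and 12900 to 22190 CPM in WT hosts. Smooth muscle markers stood apart in 4 libraries: 3892 and 1843 CPM in WT => St2-/- replicates 2 and 3 and 3179 and 1707 CPM in St2-/- => WT replicates 1 and 2, against 301.2 to 612.9 CPM in the other libraries. Library names in the labels were also numbered differently for St2-/- and WT hosts, so that a difference between cohorts of hosts cannot be told apart from host genotype. Of the 12 mice, 11 were male and 1, WT => St2-/- replicate 3, was female.

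The cytokines differed widely in abundance. Per kilobase of exon, Tnf had the highest mean over the 12 tumours, 19.6 ± 8.47 CPM per kb (SD, n = 12). Il11, Tgfb1 and Lif came next at 8.82 ± 5.17, 8.62 ± 2.2 and 8.59 ± 3.81 CPM per kb (SD, n = 12 each), with differences among these 3 far smaller than their spread. Il23a at 1.73 ± 1.14, Osm at 1.16 ± 0.533, Il17a at 0.958 ± 0.576 and Csf2 at 0.607 ± 0.546 CPM per kb (SD, n = 12 each) formed a lower group whose neighbours also lay within each other's spread. Il6 and Il22 were the lowest at 0.275 ± 0.194 and 0.206 ± 0.327 CPM per kb (SD, n = 12 each). Il6 and Csf2 reached 10 reads in 3 of 12 libraries each, and Il22 in 1. Of the 10 genes, 9 passed the filter on low counts and were tested, and Il22 did not.

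**Figure D1:**
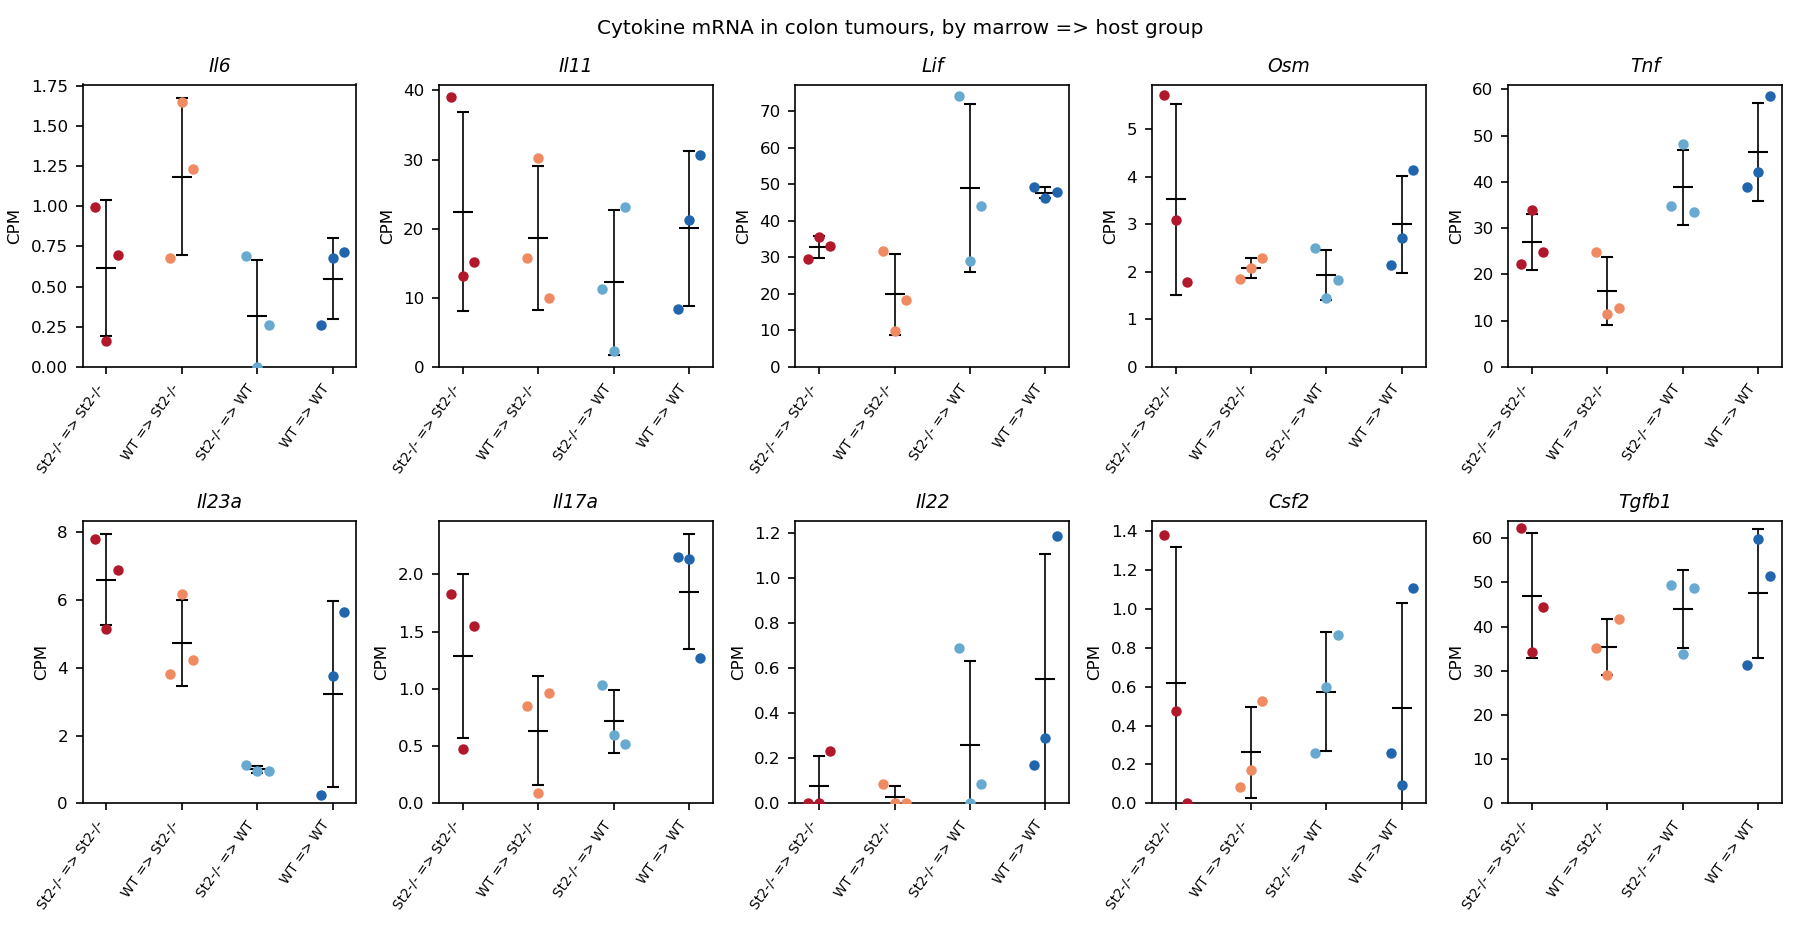
CPM of each cytokine gene (vertical axes, each from 0) in every tumour, by marrow => host group. Points are libraries in replicate order, and bars are the mean and SD of 3; error bars that reach below 0 are cut at the axis. Tnf and Lif are low in WT => St2-/- replicates 2 and 3, and Il23a is lowest in 4 WT hosts.

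Between host genotypes, averaged over both marrows, none of the 9 tested cytokines was called at an adjusted p under 0.05 (0 called, where 1.37% of all 15060 tested genes were called). At an unadjusted p under 0.05, Tnf and Lif were lower and Il23a was higher in St2-/- hosts. That is 2 of 9 lower and 1 of 9 higher, where 10.8% of all genes were lower and 9.81% higher at the same level. The median log2 fold change of the 9 cytokines was -0.17, against -0.002 over all tested genes. None of the 9 separated the 6 St2-/- hosts from the 6 WT hosts without overlap, which 2.68% of all tested genes did. Values of whole tumours cannot tell fewer cells of a type from less RNA per cell.

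**Figure D2:**
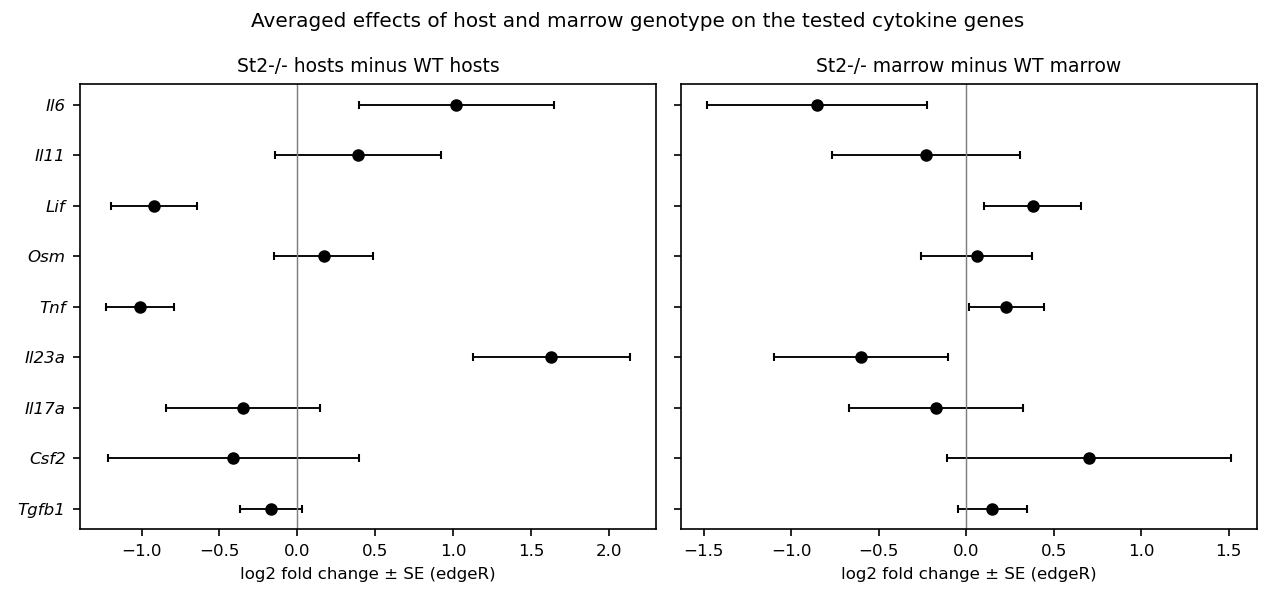
Log2 fold changes with SE bars (edgeR, n = 12 libraries) of the 9 tested cytokines for St2-/- hosts minus WT hosts (left) and St2-/- marrow minus WT marrow (right). The host panel runs from -1.01 for Tnf to 1.63 for Il23a, and the marrow panel from -0.85 for Il6 to 0.7 for Csf2.

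Tnf came closest to the threshold. St2-/- => St2-/- tumours had 22.2, 33.9 and 24.9 CPM and WT => St2-/- tumours 24.8, 11.5 and 12.8 CPM. St2-/- => WT tumours had 34.8, 48.2 and 33.4 CPM and WT => WT tumours 38.8, 42.1 and 58.6 CPM. St2-/- => St2-/- replicate 2 at 33.9 CPM was the only St2-/- host above any WT host, and it exceeded only St2-/- => WT replicate 3 at 33.4 CPM. The mean was 21.7 ± 8.38 CPM in St2-/- hosts and 42.6 ± 9.45 CPM in WT hosts (SD, n = 6 each), a log2 fold change of -1.01 ± 0.216 (SE, adjusted p = 0.0502, edgeR), rank 207 by p. Tnf was called under 8 of 21 alternative settings, with log2 fold changes between -1.23 and -0.71. Leaving out a library at a time gave adjusted p-values between 0.0124 and 0.16 (edgeR). One alternative left out WT => St2-/- replicates 2 and 3, both rich in muscle genes, and gave the smallest log2 fold change, -0.71. It kept only replicate 1 in that group. Tumours taken at 13 weeks had 11.5, 12.8 and 24.9 CPM in St2-/- hosts and 38.8, 42.1, 34.8 and 48.2 CPM in WT hosts. At 14 weeks the values were 24.8, 22.2 and 33.9 CPM in St2-/- hosts and 58.6 and 33.4 CPM in WT hosts, so that the host groups overlapped only at 14 weeks.

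Tnfrsf1a, which encodes the broadly expressed TNF receptor 1, fell in St2-/- hosts (log2 fold change -0.8 ± 0.118 SE, adjusted p = 0.00875, edgeR). Its level was 104 ± 13.1 CPM, 84.1 to 123, in St2-/- hosts and 182 ± 22.6 CPM, 147 to 205, in WT hosts (SD, n = 6 each), and the groups did not overlap. The call was kept under 20 of 21 alternatives. Leaving out WT => St2-/- replicates 2 and 3 together, with only replicate 1 kept in that group, gave a log2 fold change of -0.67. Tnfrsf1a was the only gene of the 11 cytokine pathway lists called between hosts. Of 13 tested genes of the TNF superfamily list, 1 was called lower and none higher, where 1.08% of all tested genes were called lower, and 5 were lower at an unadjusted p under 0.05, where 10.8% of all genes were, with a median log2 fold change of -0.33. Tnfsf10, which encodes the death ligand TRAIL, averaged 24.5 ± 13.1 CPM in St2-/- hosts and 62 ± 24 CPM in WT hosts (SD, n = 6 each; adjusted p = 0.0636, edgeR). Tnfsf13b, which encodes the B cell factor BAFF, had a log2 fold change of -0.83 ± 0.209 and the lymphotoxin receptor gene Ltbr one of -0.33 ± 0.086 (SE), and neither was called.

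The list of NF-kB factors and target genes held 23 tested genes, of which none was called. At an unadjusted p under 0.05, 11 were lower and none higher, where 10.8% of all tested genes were lower, and the median log2 fold change was -0.4. Icam1, the leukocyte adhesion molecule, averaged 54.5 ± 13.2 CPM in St2-/- hosts and 105 ± 37.3 CPM in WT hosts (SD, n = 6 each; log2 fold change -0.97, adjusted p = 0.0791, edgeR). Tnfaip2, a TNF-induced gene, had 34.5 ± 14.8 CPM in St2-/- hosts and 66.7 ± 27.1 CPM in WT hosts (SD, n = 6 each; adjusted p = 0.0857, edgeR). Nfkbib, which encodes an NF-kB inhibitor, and Sod2, the mitochondrial superoxide dismutase, had log2 fold changes of -0.32 ± 0.0859 and -0.25 ± 0.0698 (SE). Macrophage markers, from cells that are a main source of TNF, summed to 371.2 to 1031 CPM in St2-/- hosts and 704.4 to 1671 CPM in WT hosts, with a median log2 fold change of -0.61, and 4 of 14 were lower at an unadjusted p under 0.05. None of that list was at 0 in any library, and its part in the Tnf, Tnfrsf1a and NF-kB values was not tested.

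**Figure D3:**
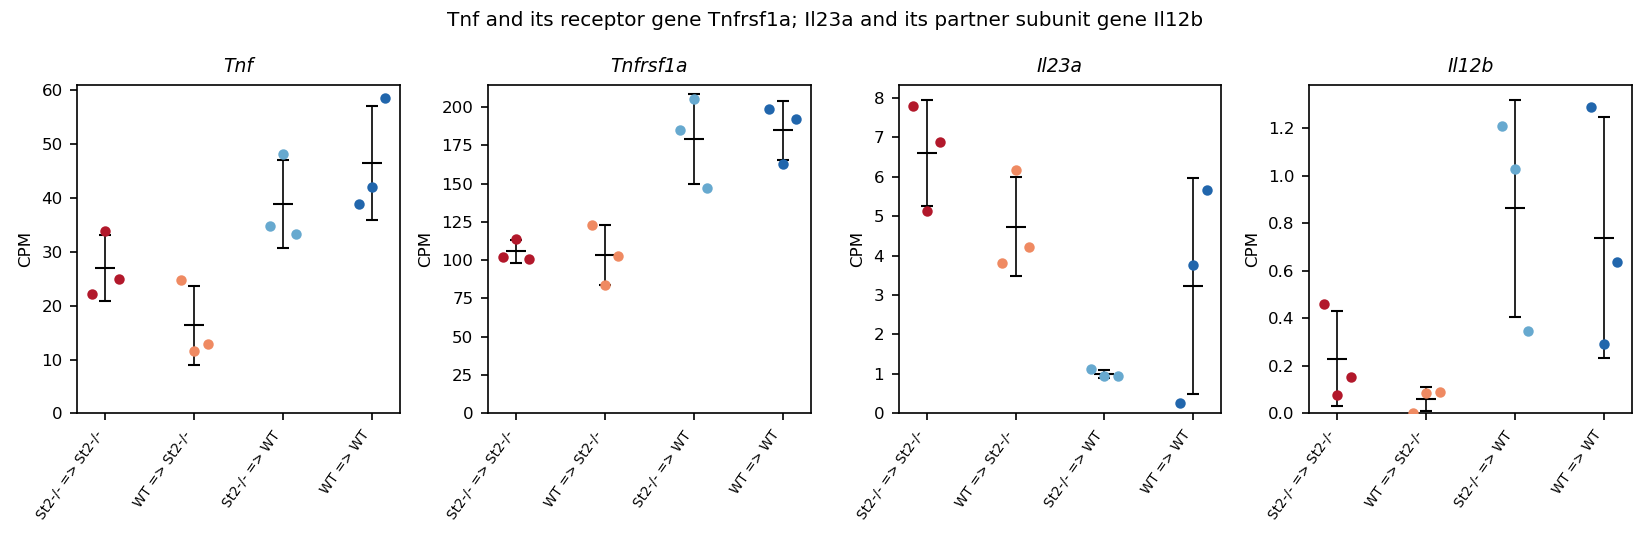
CPM of Tnf, its receptor gene Tnfrsf1a, Il23a and its partner subunit gene Il12b (vertical axes, each from 0) in every tumour, by marrow => host group. Points are libraries and bars the mean and SD of 3. Tnfrsf1a separates St2-/- hosts (84.1 to 123) from WT hosts (147 to 205), while Il23a is higher and Il12b lower on average in St2-/- hosts.

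Lif, whose product LIF maintains stem cells and activates STAT3 through gp130, had a host difference of similar size. St2-/- => St2-/- tumours had 29.6, 35.6 and 33.2 CPM and WT => St2-/- tumours 31.7, 9.74 and 18.3 CPM. St2-/- => WT tumours had 74, 28.9 and 44.1 CPM and WT => WT tumours 49.2, 46.1 and 47.8 CPM. The 3 WT => WT tumours lay within a narrow range above all St2-/- hosts, and only St2-/- => WT replicate 2, at 28.9 CPM, made the host groups overlap. The mean was 26.4 ± 10.1 CPM in St2-/- hosts and 48.3 ± 14.6 CPM in WT hosts (SD, n = 6 each), a log2 fold change of -0.92 ± 0.278 (SE, adjusted p = 0.123, edgeR). Lif was called under 3 of 21 alternatives, and leaving out a library at a time gave adjusted p-values between 0.0385 and 0.266 (edgeR). The log2 fold change was -0.58 without WT => St2-/- replicates 2 and 3, with only replicate 1 kept in that group.

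Tnf and Lif were the most abundant cytokines with a host difference at an unadjusted p under 0.05, and their upstream sequences are shown because they also had the highest correlation of any pair of tested cytokines. Tnf lies on chromosome 17, chr17:35199381-35202007 on the minus strand (GRCm38), next to the lymphotoxin genes Lta and Ltb. Lif lies on chromosome 11, chr11:4257557-4272514 on the plus strand, and its neighbour Osm ends 16530 bases before it. The 250 bases before the RefSeq start are given 5′ to 3′ on the gene's strand (GRCm38.p6), from chr11:4257318-4257567 for Lif and chr17:35202008-35202257 on the minus strand for Tnf. Capitals mark matches to the AP-1 motif and to the NF-kB consensus in Lif, in that order, and to the TATA motif in Tnf.
Lif: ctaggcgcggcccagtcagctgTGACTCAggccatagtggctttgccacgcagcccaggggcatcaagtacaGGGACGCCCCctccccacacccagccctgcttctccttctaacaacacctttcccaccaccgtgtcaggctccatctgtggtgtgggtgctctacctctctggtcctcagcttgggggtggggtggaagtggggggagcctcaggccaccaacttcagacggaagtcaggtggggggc
Tnf: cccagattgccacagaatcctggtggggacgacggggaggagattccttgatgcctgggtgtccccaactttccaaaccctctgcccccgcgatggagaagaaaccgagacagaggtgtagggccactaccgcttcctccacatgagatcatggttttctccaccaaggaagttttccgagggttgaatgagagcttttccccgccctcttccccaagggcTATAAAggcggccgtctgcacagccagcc

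Promoter entries were found for 8 of the 10 cytokines, and both strands of the 250 bases were searched. The NF-kB consensus of 10 bases had a match in 3 of 8 (Il6, Lif and Tgfb1), against 7.25% of 32851 promoter windows. Il11 had 2 windows, and a match in either was counted. The AP-1 motif TGANTCA had a match in 4 of 8 (Il6, Il11, Lif and Il17a), against 6.75%. The STAT motif TTCNNNGAA had none in the 8, against 7.02%, and TATAAA had a match in 3 of 8 (Tnf, Il17a and Il22), against 12.4%. A match describes the letters of this window and no more.

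The other gp130 cytokines showed no host difference beyond their spread. Il11, from stromal cells in gut tumours, ranged from 10 to 39 CPM in St2-/- hosts with a median of 15.5, and from 2.23 to 30.7 CPM in WT hosts with a median of 16.2 (log2 fold change 0.39 ± 0.535 SE). Osm, a product mainly of myeloid cells, ranged from 1.78 to 5.73 CPM in St2-/- hosts with a median of 2.19, and from 1.46 to 4.14 CPM in WT hosts with a median of 2.32. Its log2 fold change was 0.17 ± 0.318 (SE), and without St2-/- => St2-/- replicate 1, which held 5.73 CPM, it was -0.1. Il6 had 65 reads in all in St2-/- hosts, 2 to 19 per library, and 30 in WT hosts, 0 to 9 per library. Its log2 fold change of 1.02 ± 0.627 (SE, adjusted p = 0.379, edgeR) had the opposite sign to that of Tnf.

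Of 13 tested genes for the receptors of this family and their proximal signalling, none was called, 1 was higher at an unadjusted p under 0.05, where 9.81% of all genes were, and none lower, with a median log2 fold change of 0.02. That gene was Pias3, which encodes an inhibitor of STAT3, at 0.22 ± 0.0921 (SE). Jak2, a kinase of these receptors, had -0.32, the oncostatin M receptor gene Osmr -0.35 and the feedback inhibitor Socs3 -0.34. Of 4 tested genes for other IL-6 family ligands none was called or reached an unadjusted p under 0.05. Among them, Ctf1 had 0.47, Clcf1 0.61 and Ebi3 -0.25 on the log2 scale.

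Among 25 tested STAT3 target genes none was called, and 8 were lower and none higher at an unadjusted p under 0.05, where 10.8% of all tested genes were lower, with a median log2 fold change of -0.34. The lowest were genes for secreted defence proteins of the epithelium and the acute phase. Reg3b, which encodes an antibacterial lectin, had a median of 77 CPM, 13.6 to 304, in St2-/- hosts and a median of 504 CPM, 68.3 to 2010, in WT hosts (log2 fold change -2.78 ± 0.724 SE, adjusted p = 0.0941, edgeR). Its relative Reg3g had 10.4 to 183 CPM in St2-/- hosts and 64.6 to 1260 CPM in WT hosts (adjusted p = 0.119, edgeR). Saa2, for serum amyloid A, had a log2 fold change of -2.31 on few reads, and Cebpd, for an inflammatory transcription factor, had -0.53 (adjusted p = 0.0874 each, edgeR). Host ranges overlapped for these 4 genes. Epithelial markers were lower in St2-/- hosts at an unadjusted p under 0.05 in 5 of 14 cases, including Krt20 at -1.67, and their part in these values was not tested.

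**Figure D4:**
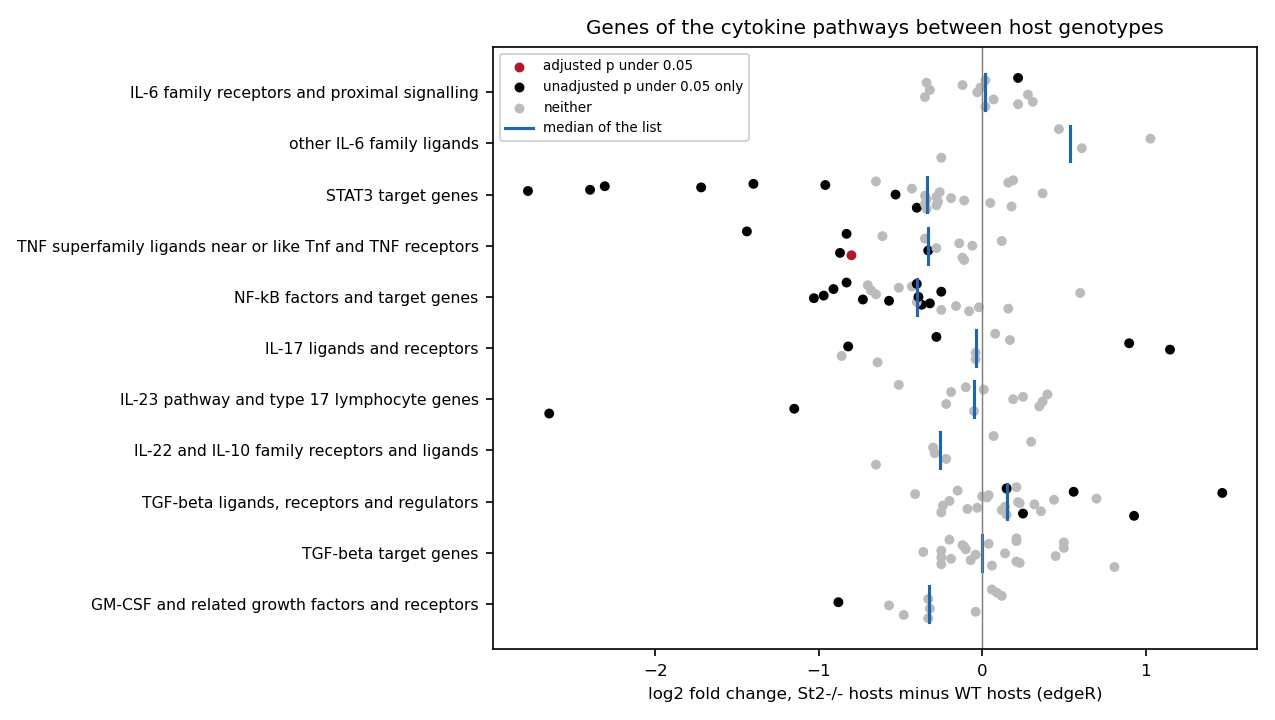
Log2 fold change of St2-/- hosts minus WT hosts (horizontal axis, edgeR) for every tested gene of the 11 cytokine pathway lists, with the 10 cytokines themselves left out. Each point is a gene, and vertical bars are list medians, from -0.4 for NF-kB genes to 0.54 for other IL-6 family ligands. Tnfrsf1a is the single gene called at an adjusted p under 0.05.

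Il23a and its partner subunit gene had fold changes of opposite sign. Il23a had 7.79, 5.14 and 6.88 CPM in St2-/- => St2-/- tumours and 3.81, 6.17 and 4.22 CPM in WT => St2-/- tumours. It had 1.12, 0.943 and 0.954 CPM in St2-/- => WT tumours and 0.258, 3.77 and 5.65 CPM in WT => WT tumours. Every St2-/- host lay above 5 of the 6 WT hosts, and WT => WT replicate 3 alone made the groups overlap. The log2 fold change was 1.63 ± 0.505 (SE, adjusted p = 0.131, edgeR), between 1.37 and 1.97 over 21 alternatives with 2 calls. Without WT => WT replicate 1, which held 3 reads, it was 1.37 and called.

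Il12b, which encodes the p40 subunit that IL-23 shares with IL-12, had 11 reads in all in St2-/- hosts and 56 in WT hosts. The ratio of normalised reads was 0.186 (exact 95% counting interval 0.0877 to 0.358, counting error only), and the log2 fold change was -2.65 ± 0.637 (SE, adjusted p = 0.0718, edgeR). Per library Il12b had 0 to 0.458 CPM in St2-/- hosts and 0.29 to 1.29 CPM in WT hosts, and the groups overlapped. Il12a, whose product pairs with p40 to form IL-12, had 49 reads in St2-/- hosts and 52 in WT hosts. The receptor gene Il12rb1, used by both dimers, averaged 1.17 ± 0.474 CPM in St2-/- hosts and 2.49 ± 1.06 CPM in WT hosts (SD, n = 6 each; adjusted p = 0.103, edgeR), and Il23r held 20 reads in St2-/- hosts and 18 in WT hosts. None of the 13 tested genes of the IL-23 and type 17 lymphocyte list was called, and 2, Il12b and Il12rb1, were lower at an unadjusted p under 0.05, where 10.8% of all genes were. Il1r1 at 0.4 and Ahr at 0.25 were next by p, and the list's median log2 fold change was -0.05.

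Il17a and Il22, the effector cytokines downstream of IL-23, were not higher in St2-/- hosts. Il17a had 1.83, 0.475 and 1.55 CPM in St2-/- => St2-/- tumours and 0.846, 0.087 and 0.967 CPM in WT => St2-/- tumours. It had 1.03, 0.6 and 0.52 CPM in St2-/- => WT tumours and 2.15, 2.13 and 1.27 CPM in WT => WT tumours. The host groups overlapped over most of their range, and the log2 fold change was -0.35 ± 0.494 (SE, adjusted p = 0.73, edgeR). Its close relative Il17f had 29 reads in St2-/- hosts and 55 in WT hosts.

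Il22 was at the edge of detection, with 4 reads in all in St2-/- hosts and 29 in WT hosts. The St2-/- hosts had 0, 0 and 3 reads in St2-/- => St2-/- tumours and 1, 0 and 0 in WT => St2-/- tumours. The WT hosts had 8, 0 and 1 reads in St2-/- => WT tumours and 2, 3 and 15 in WT => WT tumours, so that WT => WT replicate 3 alone gave 15 of the 29. The ratio of normalised reads was 0.13 (exact 95% counting interval 0.0333 to 0.371, counting error only, not the spread between mice). Fitted without the filter on low counts, the log2 fold change was -2.74 with an adjusted p of 0.248 (edgeR). It ran from -4.26 without St2-/- => St2-/- replicate 3 to -1.57 without St2-/- => WT replicate 1. The near-identical gene Iltifb had 0 reads in all 12 libraries, so reads shared with it cannot be placed by these counts. T and NK cell markers summed to 28.6 to 110.3 CPM in St2-/- hosts and 62.7 to 169.1 CPM in WT hosts. Of these markers 3 of 12 were lower at an unadjusted p under 0.05, where 10.8% of all genes were, and Cd8a was the lowest at -2.45. Their part in the Il17a and Il22 values was not tested.

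The receptors of these cytokines were mixed. Among 10 tested IL-17 ligands and receptors none was called, with 2 higher and 2 lower at an unadjusted p under 0.05, where 9.81% of all genes were higher and 10.8% lower. The median log2 fold change of these 10 was -0.04. Il17rc, a chain of the IL-17A receptor, averaged 56.4 ± 13.4 CPM in St2-/- hosts and 99.1 ± 28.4 CPM in WT hosts (SD, n = 6 each; adjusted p = 0.0674, edgeR). The adaptor gene Traf3ip2 had a log2 fold change of -0.28 ± 0.0854 (SE). Il17rd averaged 23.8 ± 6.76 CPM in St2-/- hosts and 12.7 ± 4.18 CPM in WT hosts (SD, n = 6 each; adjusted p = 0.104, edgeR), and Il17rb, the IL-25 receptor gene, had 1.15 ± 0.377 on the log2 scale (SE). Of 6 tested genes of the IL-22 and IL-10 family, none passed even an unadjusted p under 0.05. They were led by the IL-22 receptor genes Il22ra1 at -0.65 ± 0.325 and Il10rb at -0.29 ± 0.145 (SE), followed by Il10ra at -0.3 and Il20ra at 0.3.

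Tgfb1 was the steadiest of the cytokines. It ranged from 29 to 62.2 CPM in St2-/- hosts and from 31.4 to 59.7 CPM in WT hosts, with a log2 fold change of -0.17 ± 0.198 (SE, 95% interval -0.55 to 0.22). Among 26 tested TGF-beta ligands, receptors and regulators none was called, and 5 were higher and none lower at an unadjusted p under 0.05, where 9.81% of all tested genes were higher. Tgfb2, for another ligand, averaged 8.65 ± 6.11 CPM in St2-/- hosts and 4.4 ± 1.79 CPM in WT hosts (SD, n = 6 each; adjusted p = 0.231, edgeR). Tgfbr1, for the type I receptor, averaged 77.6 ± 7.1 CPM in St2-/- hosts and 65.3 ± 5.54 CPM in WT hosts (SD, n = 6 each; adjusted p = 0.126, edgeR). Genes for the activators of latent TGF-beta, Itgb8 and Thbs1, had log2 fold changes of 1.47 ± 0.523 and 0.56 ± 0.243 (SE). The 22 tested TGF-beta target genes had a median log2 fold change of 0 with none at an unadjusted p under 0.05, and Cdkn1a at -0.36, Zeb1 at 0.5 and Id3 at 0.5 were among the first by p.

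Csf2 had 0 to 18 reads per library in St2-/- hosts and 1 to 14 in WT hosts, and its log2 fold change of -0.41 ± 0.808 (SE) turned to 0.31 without WT => WT replicate 3. Of 10 tested genes for GM-CSF receptors and related factors none was called, 1 was lower at an unadjusted p under 0.05, where 10.8% of all genes were, and the median log2 fold change was -0.32. That gene was Csf3r, the G-CSF receptor gene of neutrophils, at -0.88 ± 0.382 (SE), and the receptor genes Csf2rb at -0.48, Csf1r at -0.57 and Csf2ra at -0.33 were next. Neutrophil markers summed to 68.91 to 282.3 CPM in St2-/- hosts and 71.32 to 531.1 CPM in WT hosts, and 5 of 9 tested were lower at an unadjusted p under 0.05. Csf3r is itself 1 of these markers. Mast cell markers moved the other way, 237 to 2312 CPM in St2-/- hosts and 81.44 to 309.9 CPM in WT hosts. The highest sums were 2312 and 717.9 CPM in WT => St2-/- replicates 2 and 1, and the other St2-/- hosts had 237 to 381.7 CPM. Tpsab1 was the only mast cell marker called, and it was higher, where 1.37% of all tested genes were called in either direction. The part of neutrophils and mast cells in the cytokine values was not tested.

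Marrow genotype, averaged over hosts, was associated with no called gene at all (0% of 15060, edgeR; 2.76% at an unadjusted p under 0.05), and with no cytokine at an unadjusted p under 0.05. Log2 fold changes of St2-/- marrow minus WT marrow were -0.85 ± 0.628 for Il6, -0.23 ± 0.535 for Il11, 0.38 ± 0.276 for Lif and 0.06 ± 0.319 for Osm (SE). They were 0.23 ± 0.214 for Tnf, -0.6 ± 0.496 for Il23a, -0.17 ± 0.497 for Il17a, 0.7 ± 0.812 for Csf2 and 0.15 ± 0.198 for Tgfb1 (SE). The smallest of these p-values was 0.198 before adjustment, for Lif, and every adjusted p was 0.999 (edgeR). The 95% interval for Tnf was -0.19 to 0.65 and that for Tgfb1 -0.24 to 0.54. For Csf2 it was -0.89 to 2.29, an interval that includes no change and a large one.

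No cytokine was called in any of the 6 remaining comparisons. With WT marrow, 2 of 9 cytokines were lower at an unadjusted p under 0.05 in WT => St2-/- than in WT => WT tumours, where 8.33% of all genes were, and 0.159% of genes were called. Tnf averaged 16.4 ± 7.33 CPM in WT => St2-/- and 46.5 ± 10.6 CPM in WT => WT tumours (SD, n = 3 each), a log2 fold change of -1.51 ± 0.309 (SE, adjusted p = 0.0757, edgeR). Lif averaged 19.9 ± 11.1 CPM in WT => St2-/- and 47.7 ± 1.56 CPM in WT => WT tumours (SD, n = 3 each), with -1.26 ± 0.397 (SE, adjusted p = 0.185, edgeR). Il22, fitted without the filter, had -3.87 with 1 read in WT => St2-/- and 20 in WT => WT tumours (adjusted p = 0.32, edgeR). That value ran from -5.76 without WT => St2-/- replicate 1 to -2.62 without WT => WT replicate 3.

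In the same comparison, smooth muscle markers and enteric neuron and glia markers had median log2 fold changes of 2.44 and 2.98, against 0.008 over all tested genes. Of macrophage markers 8 of 14 were lower in WT => St2-/- tumours at an unadjusted p under 0.05, and of neutrophil markers 6 of 9, where 8.33% of all genes were. Their median log2 fold changes were -1.11 and -1.76. The lowest values of Tnf and Lif were those of the muscle-rich replicates 2 and 3 of WT => St2-/-. Leaving out both kept only replicate 1 in WT => St2-/-, and the log2 fold change was -0.92 for Tnf and -0.6 for Lif. With a smooth muscle score as a covariate it was -1.21 for Tnf and -0.98 for Lif, and neither was called. The muscle-rich libraries of this comparison were all in WT => St2-/-, and the part of muscle, macrophages and neutrophils in these values was not tested.

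With St2-/- marrow, Il23a was the 1 cytokine at an unadjusted p under 0.05, and it was higher, as 4.65% of all genes were; 0.0598% were called. It averaged 6.61 ± 1.35 CPM in St2-/- => St2-/- and 1.01 ± 0.0992 CPM in St2-/- => WT tumours (SD, n = 3 each), and its log2 fold change was 2.7 ± 0.746 (SE, adjusted p = 0.292, edgeR). Without WT => WT replicate 1, which belongs to neither group but enters the shared estimate of the spread, the adjusted p was 0.033. In this comparison smooth muscle, enteric and epithelial markers had median log2 fold changes of -2.05, -2.8 and -0.7, against 0.003 over all tested genes. The St2-/- => WT replicates 1, 2 and 3 had 1.12, 0.943 and 0.954 CPM of Il23a, and replicates 1 and 2 were muscle-rich. With a smooth muscle score as a covariate the log2 fold change was 3.28 (adjusted p = 0.172, edgeR). The muscle-rich libraries of this comparison were all in St2-/- => WT, and the part of muscle, enteric and epithelial cells in the Il23a values was not tested. With WT marrow Il23a had 0.55 ± 0.688 (SE), which was 0.02 without WT => WT replicate 1 and 1.24 without WT => WT replicate 3. Tnf with St2-/- marrow had -0.52 ± 0.302 and Lif -0.58 ± 0.39 (SE), both uncalled.

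The difference between these 2 host effects was tested as an interaction, in which no gene was called (0%) and 3.07% of genes were higher at an unadjusted p under 0.05. Of the 9 cytokines, Tnf at 0.98 ± 0.428 and Il17a at 2.36 ± 0.99 (SE) reached that level (unadjusted p = 0.0429 and 0.0366, adjusted p = 0.648 and 0.647, edgeR). The same difference was 1.4 ± 0.637 for Osm, 2.15 ± 1 for Il23a and 0.68 ± 0.552 for Lif (SE), with unadjusted p-values of 0.0506, 0.0549 and 0.243 and adjusted p-values of 0.661, 0.661 and 0.785 (edgeR). That for Lif turned to -0.02 with a smooth muscle score as a covariate. For Il17a, the host effect was 0.83 with St2-/- marrow and -1.53 with WT marrow. Marrow effects within a host type gave Tnf 0.72 ± 0.305 in St2-/- hosts (SE, adjusted p = 0.995) and Il23a -1.67 ± 0.737 in WT hosts (SE, adjusted p = 0.798, edgeR), each the 1 cytokine of 9 at an unadjusted p under 0.05. The value for Il23a ran from -2.23 without WT => WT replicate 1 to -0.98 without WT => WT replicate 3, and that for Tnf from 0.52 without WT => St2-/- replicate 2 to 1.15 without WT => St2-/- replicate 1. In St2-/- hosts 1.74% of all genes were higher and in WT hosts 3.12% were lower at that level, and 0% were called in either comparison. St2-/- => St2-/- against WT => WT tumours gave Tnf -0.78 ± 0.303 (SE, adjusted p = 0.302, edgeR) as the 1 cytokine at that level, where 7.28% of all genes were lower and 0.0266% were called. These comparisons share groups and are not independent of each other.

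Across the 12 tumours, 36 pairs of tested cytokines were correlated on the log2 CPM scale, and none passed an adjusted p under 0.05. The closest was Tnf with Lif, with Pearson r = 0.799 (permutation p = 0.00204, adjusted p = 0.0734) and Spearman rho = 0.664 (permutation p = 0.0216, adjusted p = 0.309). Without the 2 libraries farthest from the median of Lif, WT => St2-/- replicate 2 and St2-/- => WT replicate 1, r was 0.788. Within the 6 St2-/- hosts r was 0.925, and within the 6 WT hosts it was -0.426, so the relation did not hold in both host types. The 2 muscle-rich WT => St2-/- libraries were the lowest for both genes, and r without both of them was not computed. Il6 ran against Tnf with r = -0.664 (adjusted permutation p = 0.185), which was -0.892 within St2-/- hosts and -0.0148 within WT hosts, and with Il11 it had r = 0.698 (adjusted permutation p = 0.185).

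**Figure D5:**
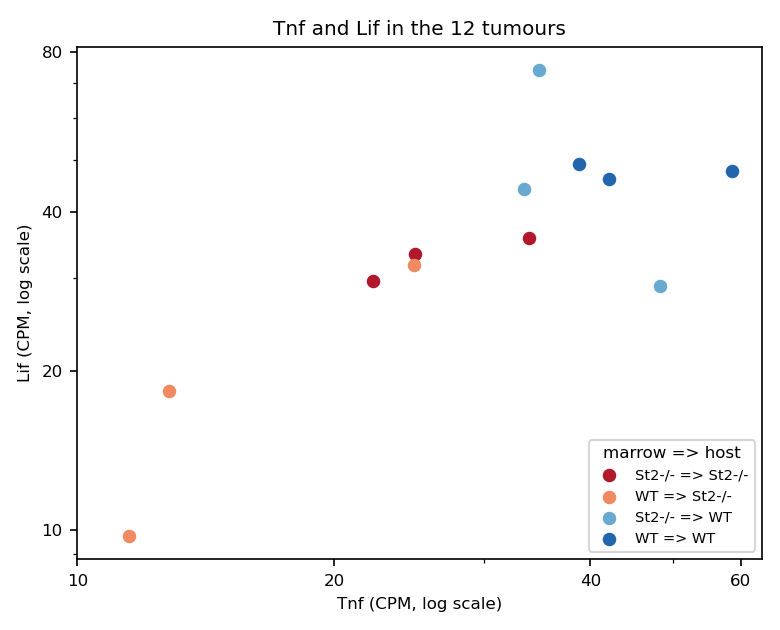
Lif against Tnf (CPM, both axes logarithmic) in the 12 tumours, coloured by marrow => host group. The 6 St2-/- hosts line up from low to high, with WT => St2-/- replicates 2 and 3 lowest for both genes, while the 6 WT hosts show no such line.

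Among 13457 named genes with a mean of at least 1 CPM, those whose log2 CPM over the 12 tumours was most like each cytokine were as follows, as a description only. Tnf was closest to Parp9, Slc35f6 and Pgam1 (r = 0.936, 0.922 and 0.916). Lif was closest to Ltf, the lactoferrin gene of neutrophil granules, then Gpr39 and Maea (r = 0.971, 0.924 and 0.915). Il11 was closest to Mmp10, a matrix metalloproteinase gene, then Nes and Galnt2 (r = 0.934, 0.918 and 0.907), and Il6 to Col15a1, Hspg2 and Csgalnact1 (r = 0.876, 0.861 and 0.853), the first and second of which encode basement membrane proteins. Il23a was closest to Zfp532, Lurap1 and Trmt10a (r = 0.9, 0.896 and 0.879), and Il17a to Pgm3, Slc7a7 and Smg8 (r = 0.895, 0.888 and 0.874). Tgfb1 was closest to Angpt4, Papln and Tlr8 (r = 0.87, 0.859 and 0.851). Osm (Ska2, Slc13a3 and Pcdhb12, r = 0.8, 0.783 and 0.778) and Csf2 (Magi2, Nup210 and Lyrm7, r = 0.823, 0.78 and 0.779) had the weakest best matches.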

How the data were processed

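Frozen tumours yielded total RNA for single-end TruSeq libraries, per the labels' protocols. The submitters' processing notes name TopHat, Bowtie2 and the build GRCm38 (mm10). The counting tool, annotation and strand setting are not given in the sources used here, so Csf2, which overlaps the antisense gene Gm12223, is less certain. The deposited values were raw counts per gene. 5 summary rows without a gene were left out, and 0 columns lacked a sample. These rows held 49.75% to 53.16% of a library in WT hosts and 52.3% to 59.64% in St2-/- hosts. The part of this difference in the host comparisons was not tested.

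Counts were fitted in R 4.3.3 with edgeR 4.0.16 (filterByExpr with minimum count 10, 15060 genes kept and 9002 removed; TMM factors 0.8989 to 1.119; robust quasi-likelihood, 1 coefficient per group). Tests were two-sided with Benjamini-Hochberg adjustment over all tested genes, at a threshold of 0.05. CPM were scaled with TMM, with factors of 0.8989 to 0.9862 in WT hosts and 0.9677 to 1.119 in St2-/- hosts. Log2 CPM used a prior count of 2. Correlations used 100000 permutations, or all permutations within 6 libraries. The labels call the samples biological replicates. In 1 simulated host comparison over 14899 genes, 54% of 2-fold and 85% of 4-fold changes were recovered, with 12 false among 151 calls. Changes were planted only in genes with a mean of at least 10 reads per library. Il6, Csf2 and Il22, with 95, 71 and 33 reads over the 12 libraries, lay below that mean, so these rates do not cover them.

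The members and lists were chosen with earlier results of these data known. Each member that passed the filter was named with its folds in both averaged comparisons and elsewhere at an unadjusted p under 0.05, Il22 with its reads and its host folds fitted without the filter, and from each pathway list up to 4 genes with the smallest p between hosts. The 3 genes most like each member that passed the filter were also named. Some genes that this rule names are not reported here. Positions came from GENCODE M21 and promoters from RefSeq (GRCm38.p6). Alternatives were DESeq2 1.42.0 size factors and Wald test, limma-voom (limma 3.58.1), other filters, a replicate block, weeks and muscle score as covariates, the groups compared alone, and libraries left out. Figures were made with Python 3.11.15 and matplotlib 3.10.9.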

Additional observations from a re-analysis of the deposited data

Results flagged for a closer look

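Groups of 6 hosts were examined for a library that stood apart, by the gap to its nearest neighbour over the range of the group (Dixon's test). Over the 20 groups, chance gives about 1 in 20. Osm in St2-/- hosts passed with a ratio of 0.668, from St2-/- => St2-/- replicate 1 at 5.73 CPM. Il22 in St2-/- hosts passed with 0.635, from St2-/- => St2-/- replicate 3, which held 3 reads where 4 of the 6 libraries held 0.

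The effect of host genotype differed with the marrow, at an unadjusted p under 0.05 only, for 2 of 9 cytokines. At that level 3.07% of all tested genes had a higher host effect with St2-/- marrow. For Tnf, the host effect with St2-/- marrow minus that with WT marrow was 0.98 on the log2 scale (adjusted p = 0.648, edgeR). For Il17a it was 2.36 (adjusted p = 0.647, edgeR). Neither passed the adjustment over all tested genes, and over the alternatives the value ran from 0.28 to 1.43 for Tnf and from 1.64 to 2.79 for Il17a. Leaving out a library at a time gave 0.78 to 1.43 for Tnf and 1.85 to 2.79 for Il17a, so the lowest values came from other settings.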

How the results depend on the processing

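For the averaged host effect, the count of called cytokines was 1 (Tnf) with DESeq2 size factors, with no filter, with the CPM filter, with weeks as a covariate and with the muscle score as a covariate. It was 2 (Lif and Tnf) with limma-voom, which called 12.2% of all genes, and 3 (Lif, Tnf and Il23a) with the DESeq2 Wald test, which called 7.96%. Leaving out 1 library gave 0 to 2, with Il23a called without WT => WT replicate 1, where 0.876% of all genes were called. Lif and Tnf were called without WT => St2-/- replicate 1, where 3.34% of all genes were, against 1.37% in the fit as reported. That setting kept only the muscle-rich replicates 2 and 3 in WT => St2-/-. With WT marrow the count was 2 (DESeq2: Lif and Tnf, with 4.96% of all genes called) and 1 (limma-voom: Tnf, with 2%). It was 0 to 1 on leaving out a library, with 0.00664% to 1.06% of all genes called. With St2-/- marrow it was 1 (DESeq2: Il23a, with 1.74%) and 0 to 1 on leaving out a library, with 0.00664% to 0.113%. For full loss it was 1 (limma-voom: Tnf, with 11.2%). Each of these counts was 0 in the edgeR fit as reported. The other 4 comparisons gave 0 under all alternatives run.

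Log2 fold changes that turned sign were all uncalled. With limma-voom these were Osm between hosts (-0.24) and, between marrows, Osm (-0.3), Il17a (0.06) and Csf2 (-1.2). Osm between marrows was -0.02 with weeks as a covariate. The difference of host effects between marrows for Lif was -0.02 with the muscle score as a covariate. Without WT => St2-/- replicates 2 and 3, with only replicate 1 kept in that group, Tnf between marrows was -0.06 and Il20ra between hosts -0.13. Leaving out 1 library gave -0.1 to 0.33 for Osm, -1.08 to 0.31 for Csf2, -0.46 to 0.03 for Ebi3 and -0.11 to 0.86 for Il20ra between hosts. Between marrows it gave -0.65 to 0.04 for Il11, -0.21 to 0.22 for Osm and -0.42 to 0.04 for Il17a. The cause was not tested.

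Same-numbered replicates deviated together in 5 of 18 pairs (correlations above 0.1, in a range of -0.44 to 0.308). No chance level was computed for these correlations, so they cannot decide whether the numbers pair the samples. The labels do not say that they do. With the replicate number as a block, the count of called cytokines was 0 in all 8 comparisons and Tnf between hosts had an adjusted p of 0.0989 at -1.02. No pair of cytokines passed among 36 correlations, nor without the 2 libraries farthest from the median of the pair's first gene (lowest adjusted p 0.143). Nor did any pass within St2-/- hosts (lowest adjusted p 0.05) or within WT hosts (0.431). With all permutations of 6 libraries, the smallest possible permutation p was 0.00139, that of Lif with Tnf in St2-/- hosts. A single pair at this value has an adjusted p of 0.05, so within a host type no pair could pass alone. Il6, Il22 and Csf2 had under 20 reads in every library, which limits the precision of their values.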
